A study of Homo sapiens with 9 samples.

Results

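The ATP-binding cassette (ABC) transporter genes were taken as the protein-coding genes whose symbol is ABCA, ABCB, ABCC, ABCD, ABCE, ABCF or ABCG followed by a number. The rule found 45 genes among 58336 rows of gene values, and it used no measured value. Nascent transcription was measured by PRO-seq, which labels and sequences RNA at the end that an engaged RNA polymerase is extending, in permeabilized nuclei of MEL624, a human melanoma cell line. The 3 groups were control cells (wild type with a random sgRNA), PCIF1 knockout clone 1 and PCIF1 knockout clone 2, with 3 biological replicates each. The deposited values are 1 mean per group. The spread between replicates is therefore unknown, no difference below has an error or a test, and "higher" and "lower" describe these means only. Each knockout is a single clone, and the control mean serves both comparisons. The loss of PCIF1 and the history of a clone cannot be told apart in either of them. Each value is a mean over whole cultures, so transcription in fewer cells and less transcription per cell cannot be told apart.

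ABC proteins bind and hydrolyse ATP in a conserved nucleotide-binding domain, and most of them use that energy to move lipids, drugs, conjugates or peptides across a membrane. The A and G subfamilies export mainly lipids and sterols, the B and C subfamilies hold the multidrug exporters, the D subfamily works on fatty acyl chains in peroxisomes, and the E and F proteins have no membrane domain and act on ribosomes. In melanoma the family is known above all for drug efflux and for the sequestration of drugs in melanosomes. PCIF1 methylates the first transcribed base of capped mRNAs where that base is an adenosine, which gives the mark m6Am, so the annotated start base of each member is described below as well.

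The summed normalized counts of the groups were close, at 3760730 in control against 3759168 and 3823178 in clones 1 and 2. The PCIF1 locus itself was still transcribed in both clones (239.5 normalized counts in control against 269.6 and 239.3 in clones 1 and 2), which says nothing about its protein. Of 11 melanocyte markers, which bear on the melanoma label, 4 had enough signal to be compared. The lineage factor MITF had 168.5, 142.0 and 259.2 normalized counts in control, clone 1 and clone 2, and the melanosome matrix gene PMEL 48.4, 21.3 and 23.8. RAB27A had 44.4, 59.3 and 69.6, while GPNMB was close in all 3 groups, at 226.9, 230.4 and 208.4. The pigment enzyme gene TYR was at 0 in every group, SOX10 was at 0, 0 and 6.08, and MLANA and DCT stayed at or under 2.04. The pigment genes SLC45A2 and TYRP1 had 10.6, 7.22 and 7.12, and 3.33, 6.81 and 3.03, while OCA2 stayed at or under 0.33. Among 13 markers of other cell types only the collagen gene COL1A1 was compared (18.0, 27.8 and 18.4), the 13 markers summed to 43.9, 58.9 and 42.5, and KRT14 and CD3E were at 0. Within that sum the fibroblast gene LUM was at 0.69, 7.91 and 7.10, and the epithelial gene EPCAM at 12.6, 9.95 and 4.48. Their part in the results was not tested.

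Of the 45 members, 29 had a mean of at least 10 normalized counts over the 3 groups and were compared, and 16 lay below that floor. Ratios are log2 of (count + 1) in a clone over (count + 1) in control, and a gene is called where the ratio reaches 2-fold. In clone 1, 0 of the 29 members were at least 2-fold higher than control, where 2.04% of the 12525 protein-coding genes compared were, and 1 member, ABCC2, was at least 2-fold lower, where 1.27% of protein-coding genes were. In clone 2, 2 members, ABCB1 and ABCC9, were at least 2-fold higher (6.9% of members, against 2.78% of protein-coding genes), and ABCC2 alone was at least 2-fold lower (3.45%, against 1.46%). ABCC9 was compared at all because of its level in clone 2, so its call is a description. In both clones at once, ABCC2 was the single member at least 2-fold lower (0.543% of protein-coding genes) and 0 members were at least 2-fold higher (1.53%). With 1 or 2 members on each side, these shares do not set the family apart from other genes.

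At the looser mark of 1.5-fold, clone 1 had 3 members higher, ABCB1, ABCC9 and ABCC11 (10.3% of members, against 5.72% of protein-coding genes), and 2 lower, ABCC2 and ABCA10 (6.9%, against 4.28%). With a pseudocount of 5 in place of 1, ABCC9 and ABCC11 were at 0.42 and 0.52 in clone 1, under the 1.5-fold mark. Clone 2 had 2 members higher, ABCB1 and ABCC9 (6.9%, against 8.24%), and 2 lower, ABCC2 and ABCC3 (6.9%, against 5.22%). The other members lay within 1.5-fold, 24 of 29 in clone 1 (82.8%, against 90.0% of protein-coding genes) and 25 in clone 2 (86.2%, against 86.5%). The members' median log2 ratio was 0.01 in clone 1, with 15 above 0 and 14 below, and -0.12 in clone 2, with 10 above and 19 below. Over all protein-coding genes compared, the medians were -0.01 and -0.00, and 6327 of 12525 lay below 0 in clone 2.

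Levels of different genes were compared per kilobase. The median member had 18.33 normalized counts per kb in control, 12.97 in clone 1 and 12.54 in clone 2, where the median protein-coding gene had 29.12, 28.92 and 29.08. The middle place was held by ABCC3 in control and by ABCC5 in both clones, so these medians compare different genes. The members' median log2 ratio was 0.01 in clone 1 and -0.12 in clone 2, with 19 of 29 below 0 in clone 2. In control, the highest members per kb were ABCC2 (55.99), ABCF1 (52.76), ABCB8 (46.85), ABCE1 (43.79) and ABCF3 (39.42). In both clones ABCB1 took the first place, with 52.47 per kb in clone 1 and 73.82 in clone 2 after 32.68 in control, where it was sixth. ABCC2 moved from place 1 in control to place 17 in clone 1 and place 18 in clone 2. The stretch of each gene over which reads were counted is not given in the sources used here, while the lengths in the table are mostly those of the merged exons; the order of genes per kb depends on that.

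**Figure D1:**
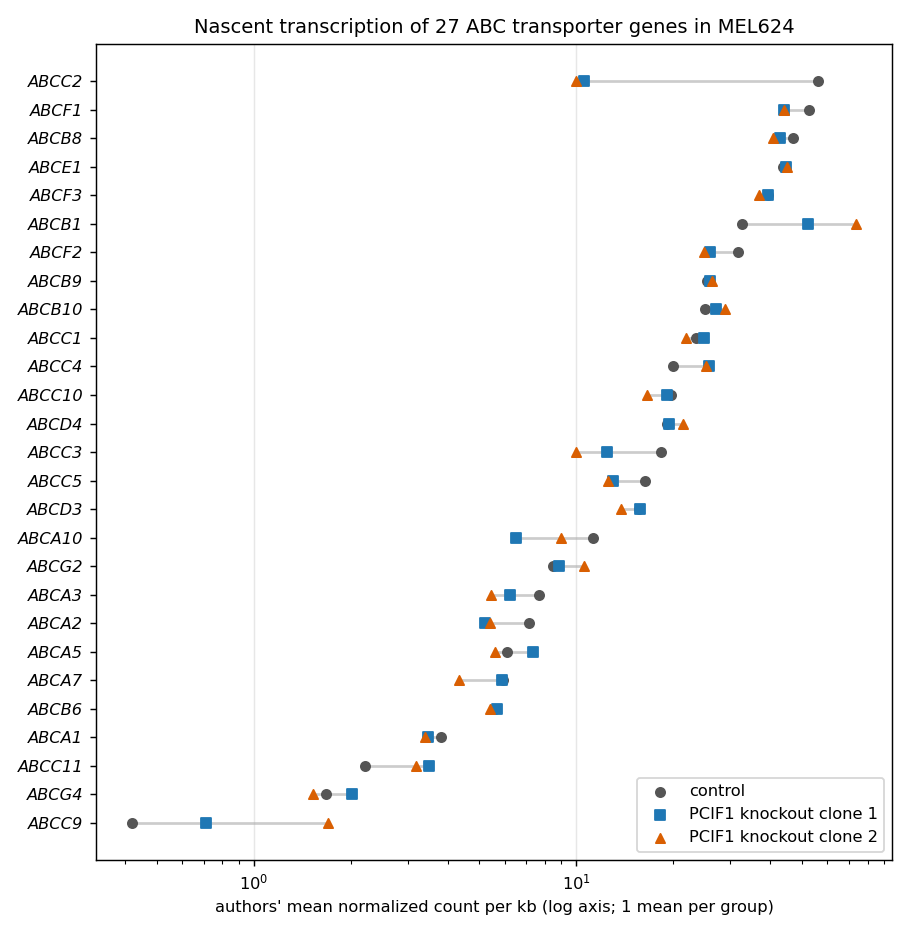
Authors' mean normalized count per kb (log axis) of 27 of the 29 members compared, ordered by control, with 1 point each for control (circle), clone 1 (square) and clone 2 (triangle) and a line over their range. The widest lines are those of ABCC2 (55.99, 10.58 and 9.98), ABCB1 (32.68, 52.47 and 73.82) and ABCC9 (0.42, 0.71 and 1.70).

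There were 6 members that reached 1.5-fold in at least 1 clone: ABCC2, ABCC3, ABCB1, ABCC11, ABCA10 and ABCC9. The promoters of 5 of them are shown because the motifs and start bases named below lie in them. Each window runs from 200 bases before the start of the GENCODE canonical transcript to 20 bases from that start on, on hg38, in the direction of transcription. Capitals mark the start base and any CCAAT box (CCAAT), GC box (GGGCGG) or M-box (CATGTG, the E-box form known from pigment-cell promoters), read on either strand. The windows are chr10:99782440-99782659 (+) for ABCC2, chr7:87600865-87601084 (-) for ABCB1, chr16:48247520-48247739 (-) for ABCC11, chr17:69228805-69229024 (-) for ABCA10 and chr12:21941407-21941626 (-) for ABCC9.
ABCC2: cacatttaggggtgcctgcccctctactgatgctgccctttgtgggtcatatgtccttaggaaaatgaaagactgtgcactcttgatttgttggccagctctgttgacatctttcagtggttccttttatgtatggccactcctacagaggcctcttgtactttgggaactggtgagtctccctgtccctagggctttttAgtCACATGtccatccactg
ABCB1: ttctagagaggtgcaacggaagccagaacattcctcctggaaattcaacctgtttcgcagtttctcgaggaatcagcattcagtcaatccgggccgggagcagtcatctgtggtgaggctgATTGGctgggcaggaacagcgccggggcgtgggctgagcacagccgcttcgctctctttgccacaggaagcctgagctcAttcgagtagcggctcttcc
ABCC11: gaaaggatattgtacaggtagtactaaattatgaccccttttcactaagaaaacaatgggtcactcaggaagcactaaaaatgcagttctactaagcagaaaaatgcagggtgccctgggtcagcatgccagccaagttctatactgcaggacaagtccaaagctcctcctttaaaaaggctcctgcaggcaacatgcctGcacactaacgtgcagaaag
ABCA10: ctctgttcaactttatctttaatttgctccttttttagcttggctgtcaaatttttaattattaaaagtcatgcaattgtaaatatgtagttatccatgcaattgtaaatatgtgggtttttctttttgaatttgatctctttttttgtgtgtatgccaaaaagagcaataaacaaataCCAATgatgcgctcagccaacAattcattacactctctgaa
ABCC9: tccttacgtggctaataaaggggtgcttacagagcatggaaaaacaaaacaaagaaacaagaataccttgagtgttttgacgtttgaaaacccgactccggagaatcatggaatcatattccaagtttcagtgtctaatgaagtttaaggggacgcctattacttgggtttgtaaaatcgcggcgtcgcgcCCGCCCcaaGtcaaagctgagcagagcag

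ABCC2, ABCB1 and ABCA10 start with A at the annotated site, and ABCC9 and ABCC11 with G. Counting the start base as 1, the ABCC2 window has an M-box on the reverse strand at 4, the ABCB1 window a CCAAT box on the reverse strand at -79, and the ABCA10 window a CCAAT box at -21. The ABCC9 window has a GC box on the reverse strand at -9. The ABCC11 window holds none of these letters. Among the windows of the 12512 protein-coding genes for which one was read, 32.1% hold CCAAT, 69.7% GGGCGG and 4.90% CATGTG.

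The drug and conjugate exporters hold the member farthest below control, ABCC2, and one of those farthest above it, ABCB1. Of 11 genes in this role, 9 were compared: 5 were above control and 4 below in clone 1 (median log2 ratio 0.07), and 4 were above and 5 below in clone 2 (median -0.11).

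ABCC2 (MRP2, ENSG00000023839), which exports glutathione, glucuronide and drug conjugates across apical membranes, lies on chromosome 10 at 99782640-99852594 on the plus strand of hg38. It had 348.9 normalized counts in control against 65.9 and 62.2 in clones 1 and 2. Control was high and both clones were low and close to each other, with clone 2 over clone 1 at -0.08 on the log2 scale. The log2 ratios to control were -2.39 in clone 1, which is 5.23-fold lower, and -2.47 in clone 2, which is 5.54-fold lower, so the counts were 81.1% and 82.2% below control. Ranked from the lowest ratio among all 17149 genes compared, ABCC2 took place 41 in clone 1 and place 42 in clone 2. The only annotated gene that overlaps ABCC2 is the pseudogene NANOGP6, with at most 0.373 normalized counts in any group.

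ABCC3 (MRP3, ENSG00000108846), the basolateral counterpart that exports conjugated organic anions, lies on chromosome 17 at 50634777-50692253 on the plus strand. It had 176.2 normalized counts in control against 119.9 and 96.0 in clones 1 and 2. Both clones were below control, with log2 ratios of -0.55 (1.47-fold lower) and -0.87 (1.83-fold lower), neither of which reached the 2-fold mark.

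ABCB1 (P-glycoprotein, ENSG00000085563), the broad-range drug exporter of the plasma membrane, lies on chromosome 7 at 87503017-87713323 on the minus strand. It had 189.7 normalized counts in control against 304.6 and 428.6 in clones 1 and 2. Both clones were above control, by 0.68 log2 units in clone 1 (1.60-fold) and 1.17 in clone 2 (2.25-fold), and the clones differed from each other by 0.49. RUNDC3B, which overlaps ABCB1 on the opposite strand, had 4.43, 4.29 and 7.82 normalized counts in control, clone 1 and clone 2.

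ABCC11 (MRP8, ENSG00000121270), an exporter of lipophilic anions on chromosome 16 at 48165773-48247568 on the minus strand, was low throughout, with 16.1 normalized counts in control against 25.3 and 23.1 in clones 1 and 2 (log2 ratios 0.62 and 0.50). It overlaps the peroxisomal protease gene LONP2 on the opposite strand, which had 330.4, 358.5 and 328.3. The annotated starts of the 2 genes lie 3.2 kb apart. Whether reads were counted by strand is not given in the sources used here. If strand was not used, reads of the bases that ABCC11 and LONP2 share cannot be told apart.

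The other drug and conjugate exporters compared stayed within 1.5-fold. ABCC4 (MRP4), which exports cyclic nucleotides and prostanoids, had 171.8 normalized counts in control against 223.0 and 218.6 in clones 1 and 2 (log2 ratios 0.37 and 0.35). ABCC5 (MRP5), another exporter of cyclic nucleotides, had 187.4, 148.4 and 143.5 (-0.33 and -0.38). Both had their clones on one side of control and close to each other. ABCC1 (MRP1), the glutathione-conjugate exporter of many tumour cells, had 178.4, 187.9 and 165.5 (0.07 and -0.11). ABCG2 (BCRP), a drug and urate exporter, had 42.7, 44.7 and 53.3 (0.07 and 0.31), and ABCC10 (MRP7) had 159.3, 154.7 and 133.6 (-0.04 and -0.25). For ABCC1 the clones lay on opposite sides of control.

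**Figure D2:**
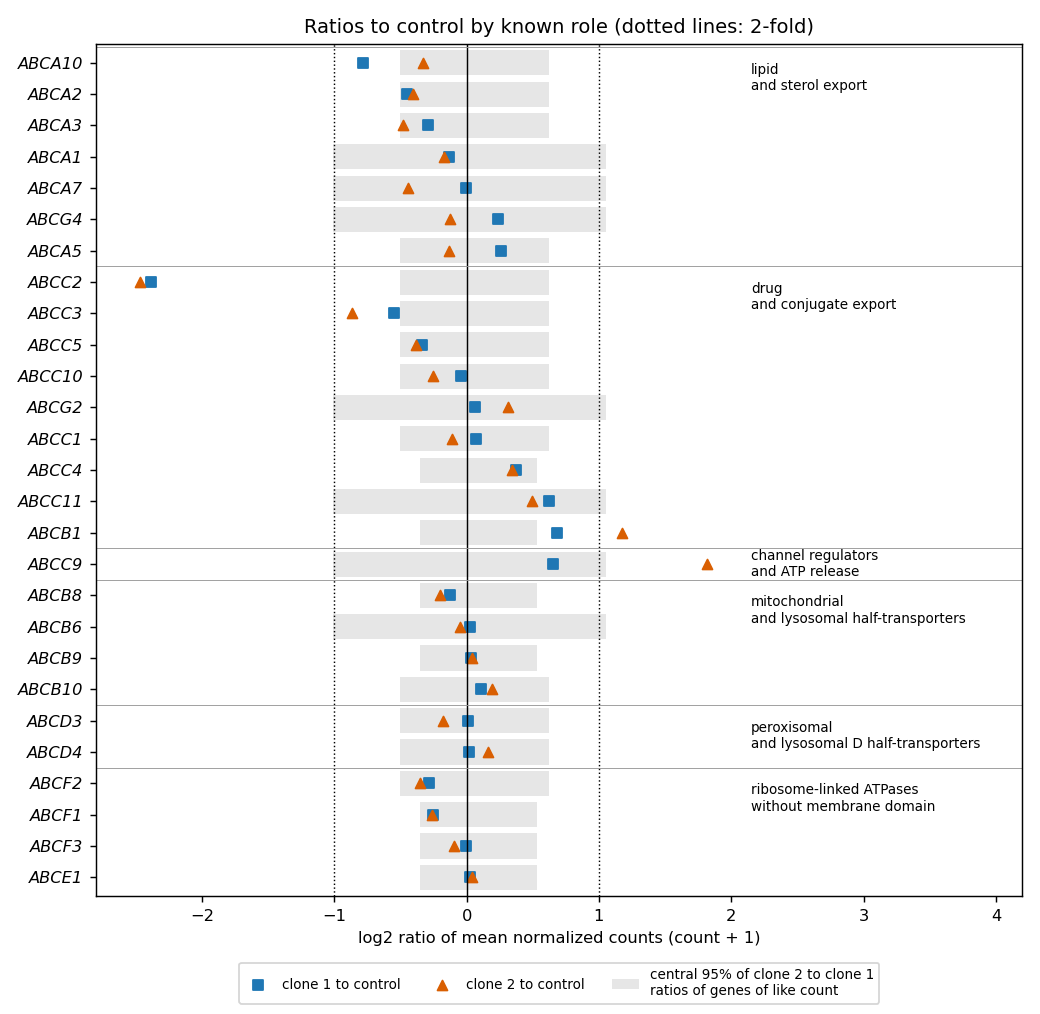
Log2 ratio of mean normalized counts (count + 1) of clone 1 (square) and clone 2 (triangle) to control for 27 of the 29 members compared, grouped by known role; grey bars span the central 95% of clone 2 to clone 1 ratios of genes of like count, and dotted lines mark 2-fold. ABCC2 lies at -2.39 in clone 1 and -2.47 in clone 2, and ABCB1 and ABCC9 are the members past 2-fold higher, in clone 2 only.

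With no replicate values, the distance between the 2 knockout clones was used as a measure of size. Among the genes compared with a mean of 10 to 50 normalized counts, the central 95% of clone 2 over clone 1 log2 ratios ran from -1.01 to 1.05 (5232 genes). It ran from -0.50 to 0.63 at 50 to 200 counts (6631 genes) and from -0.35 to 0.53 at 200 to 1000 (4817 genes). Of the 29 members, 25 had a clone 1 to control ratio inside that range (86.2%, where 91.3% of protein-coding genes did), and 25 a clone 2 to control ratio (86.2%, where 86.4% did). ABCC2, ABCC3 and ABCB1 lay outside in both clones, ABCA10 in clone 1 and ABCC9 in clone 2. This range holds clonal differences as well as noise and stands in for no replicate error.

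Lipid and sterol exporters were mostly below the floor, and 7 of 18 were compared. All 7 lay below control in clone 2 (median log2 ratio -0.33), where 6327 of 12525 protein-coding genes did. In clone 1, 5 of 7 did (median -0.13), where 6457 of 12525 protein-coding genes did. Among the 7 were 6 of the 12 ABCA genes, which had medians of -0.21 and -0.37 in clones 1 and 2. The count of 7 below in clone 2 held under both rescalings tried, while in clone 1 rescaling by the median of ratios left 4 of 7 below, since ABCA7 crossed 0. No member of this group reached 2-fold. In clone 2 all 7 lay inside the range between clones given above for their counts. The group was chosen with earlier results of these data known.

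ABCA10 (ENSG00000154263), an ABCA gene of unknown substrate on chromosome 17 at 69147214-69244846 on the minus strand, had 94.9 normalized counts in control against 54.7 and 75.1 in clones 1 and 2. Both clones were below control, clone 1 the lower, with log2 ratios of -0.78 and -0.33. Its upstream neighbour ABCA5, a lysosomal lipid transporter whose annotation overlaps that of ABCA10 by 536 bases on the same strand, had 80.4, 96.3 and 73.4 (0.26 and -0.13). In clone 1 the pair thus lay on opposite sides of control. PRO1804, which also overlaps ABCA10 on the same strand, had 20.3, 17.4 and 6.44 (-0.21 and -1.51). ABCA2, a transporter of sterols and sphingolipids in late endosomes, had 82.3, 59.9 and 62.1 (-0.45 and -0.40). ABCA3, which loads phospholipid into lamellar bodies, had 59.6, 48.5 and 42.5 (-0.29 and -0.48). ABCA2 and ABCA3 were below control in both clones.

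ABCA1, which hands cholesterol and phospholipid to apolipoprotein A-I, had 43.4 normalized counts in control against 39.5 and 38.5 in clones 1 and 2 (log2 ratios -0.13 and -0.17). ABCA7, its close relative, had 49.4, 49.4 and 36.1 (-0.00 and -0.44). ABCG4, a sterol exporter, lay at the floor with 10.5, 12.6 and 9.59 (0.24 and -0.12). ABCG1, the usual partner of ABCA1 in cholesterol efflux, was below the floor with 2.45, 0 and 1.04.

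Of the channel regulators, ABCC9 alone was compared. ABCC9 (SUR2, ENSG00000069431), the sulfonylurea receptor that regulates ATP-sensitive potassium channels, lies on chromosome 12 at 21797389-21942543 on the minus strand. It had 4.88 normalized counts in control against 8.25 and 19.7 in clones 1 and 2, so it passed the floor through clone 2. Both clones were above control, with log2 ratios of 0.65 (1.57-fold) and 1.82 (3.53-fold), and clone 2 was 1.17 above clone 1. The gene of the pore subunit that pairs with SUR2, KCNJ8, lies 21.8 kb downstream of ABCC9 on the same strand. KCNJ8 had 2.46, 16.1 and 24.1 normalized counts (log2 ratios 2.31 and 2.86), and it passed the floor through the clones. For both genes the order was control, clone 1, clone 2. The related ABCC8 (SUR1) and its pore partner KCNJ11 were low, with 0.38, 0 and 0.38 for ABCC8 and 2.85, 1.09 and 2.40 for KCNJ11.

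Clone 2 was at least 2-fold above clone 1 for ABCC9 alone among the members (3.45%, against 0.926% of protein-coding genes) and at least 2-fold below it for 0 members (0.758%). ABCC9 was compared at all because of its level in clone 2, so this call is a description. With a pseudocount of 5 its log2 ratio was 0.90, under 2-fold. Between the clones, 28 of the 29 members lay within 1.5-fold (96.6%, where 93.7% of protein-coding genes did). The median log2 ratio of the 29 was -0.07, with 10 above 0 and 19 below. For the 12525 protein-coding genes compared, that median was 0.00, with 6329 above 0 and 6173 below.

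The ABCB proteins of mitochondria and lysosomes were all compared, 5 of 5, and all stayed within 1.5-fold (median log2 ratios 0.03 and -0.05). ABCB8, linked to iron export from mitochondria, had 437.4 normalized counts in control against 400.8 and 380.7 in clones 1 and 2. ABCB9, a lysosomal peptide transporter, had 338.9, 346.5 and 349.3, and ABCB10, which stabilizes mitoferrin in heme-making cells, had 107.0, 115.4 and 122.7. The clones differed from control by at most 0.20 log2 units in these. ABCB6, found in mitochondrial and lysosomal membranes and linked to pigment, had 29.3, 29.8 and 28.3.

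In the D subfamily, 3 of 4 genes were compared. ABCD3, the peroxisomal carrier of branched and dicarboxylic acyl chains, had 117.4 normalized counts in control against 118.3 and 103.8 in clones 1 and 2. ABCD4, needed for release of cobalamin from lysosomes, had 168.1, 169.9 and 188.4. The log2 ratios of the 3 lay between -0.18 and 0.16.

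The ribosome-linked E and F proteins were all compared, 4 of 4. ABCE1, which splits ribosomes after termination, had 274.3 normalized counts in control against 279.9 and 282.1 in clones 1 and 2 (log2 ratios 0.03 and 0.04). ABCF1, which promotes translation initiation, had 238.6, 200.01 and 198.9 (-0.25 and -0.26). ABCF2 had 132.7, 108.6 and 103.7 (-0.29 and -0.35), and ABCF3 had 205.3, 204.1 and 192.1 (-0.01 and -0.09). ABCF1 and ABCF2 were below control by like amounts in both clones, while ABCE1 and ABCF3 lay close to it.

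Several other members share bases with a compared gene, and their values are uncertain to that extent. ABCB6 overlaps the protein-coding gene ENSG00000284820 on the same strand (20.1, 18.8 and 18.0 normalized counts in control, clone 1 and clone 2). ABCD4 overlaps the noncoding gene ENSG00000258559, also on the same strand (14.6, 13.5 and 12.6). ABCB9 overlaps OGFOD2 on the opposite strand (155.2, 184.5 and 206.5 normalized counts in control, clone 1 and clone 2). ABCE1 overlaps ANAPC10 (139.7, 159.6 and 157.2) and OTUD4 (144.9, 157.2 and 125.0), also on the opposite strand.

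The 16 members below the floor had means from 0.213 to 4.43 normalized counts, and 7 members were at 0 in at least 1 group. No fold is given for them. Those with values here were chosen after their values were seen. ABCB4, the phosphatidylcholine floppase of bile canaliculi and the next gene downstream of ABCB1 on the same strand (gap 22.6 kb), had 0.758 in control against 3.03 and 7.43 in clones 1 and 2, which was the highest value in this set and the same order as ABCB1. ABCA4, the retinoid transporter of photoreceptors, had 1.15, 1.89 and 4.43, also in that order. ABCB5, known as a marker of slow-cycling melanoma cells, had 1.11, 0.278 and 0. ABCA12, the lipid transporter of the epidermal barrier, had 2.92, 0.283 and 0. ABCD2 had 3.31, 4.87 and 5.12, and ABCA13 had 5.91, 3.43 and 3.43. The others were ABCA6, ABCA8, ABCA9, ABCB11, ABCC6, ABCC8, ABCC12, ABCG1, ABCG5 and ABCG8. ABCC6 has near-identical pseudogene copies, so its value is uncertain. Of these copies, ABCC6P1 was at 0 in every group and ABCC6P2 at 0.34, 0 and 0.

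Each member was set against 10 neighbours, the 5 nearest compared protein-coding genes on each side that are no members. The neighbours of ABCC2 had a median log2 ratio of -0.08 in clone 1 and 0.32 in clone 2, with ranges of -0.38 to 0.40 and -0.08 to 0.96, so the log2 ratio of ABCC2 minus that median was -2.31 and -2.79. The genes next to it on the upstream side, COX15 (202.6, 201.2 and 288.6 normalized counts in control, clone 1 and clone 2) and CUTC (200.2, 205.9 and 313.8), were at or above control. DNMBP on the downstream side had 752.7, 742.7 and 717.1.

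Around ABCB1 the neighbours' medians were -0.02 and 0.09, and ABCB1 lay 0.70 and 1.08 above them. Nearby, SLC25A40 had 199.0, 281.2 and 300.2 normalized counts and ADAM22 had 180.8, 233.4 and 306.1, in the same order as ABCB1, while DBF4 had 317.7, 299.5 and 267.1 and CROT 68.6, 67.4 and 61.7. Around ABCC9 the medians were 0.28 and 0.42, and ABCC9 lay 0.38 and 1.39 above them; KCNJ8 is among those neighbours. ABCC3, ABCA10 and ABCC11 had neighbours with medians between -0.07 and 0.05. Those of ABCC3 were spread widely, from SPATA20 (-0.50 in clone 1 and -0.38 in clone 2) to MYCBPAP (1.95 in both). The neighbours' median reached 0.25 in size for 2 of 29 members in clone 1, ABCC9 and ABCG2 (0.43). In clone 2 it did so for 5 of 29, ABCA3 (-0.35), ABCC1 (-0.43), ABCC2, ABCC9 and ABCG2 (0.32). The log2 ratio of ABCA3 minus its neighbours' median was -0.125 in clone 1 and -0.13 in clone 2. Copy number was not measured here, and its part in these ratios was not tested.

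**Figure D3:**
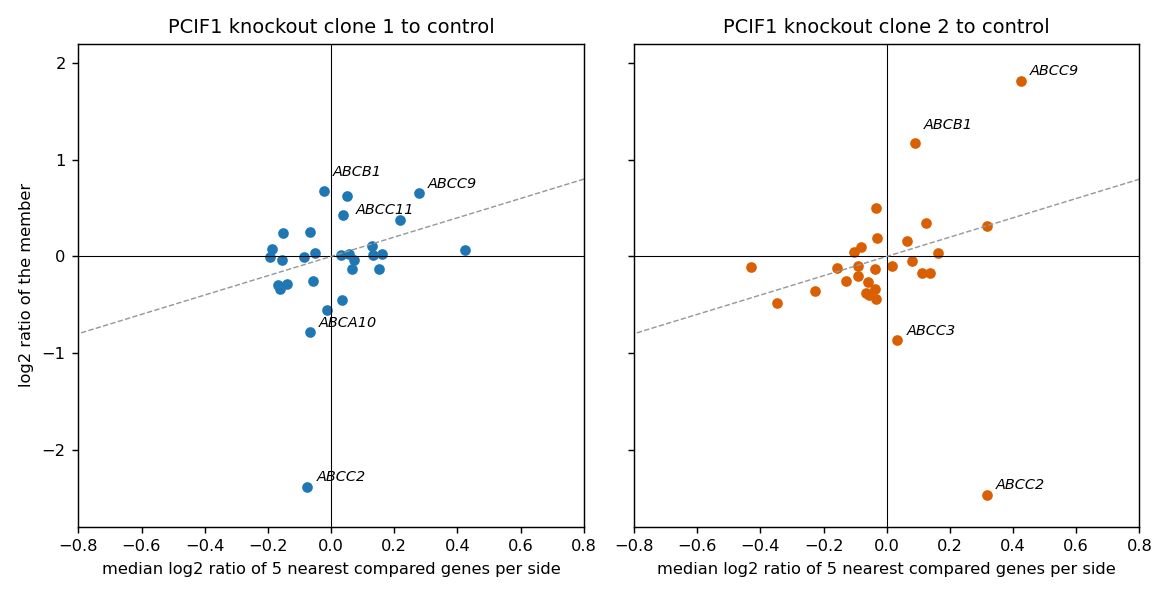
Log2 ratio of each of the 29 members to control against the median log2 ratio of the 5 nearest compared genes on each side of it, for clone 1 (left) and clone 2 (right), with a dashed line of equality. ABCC2 stands far below the line in both panels while its neighbours had medians of -0.08 and 0.32.

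**Figure D4:**
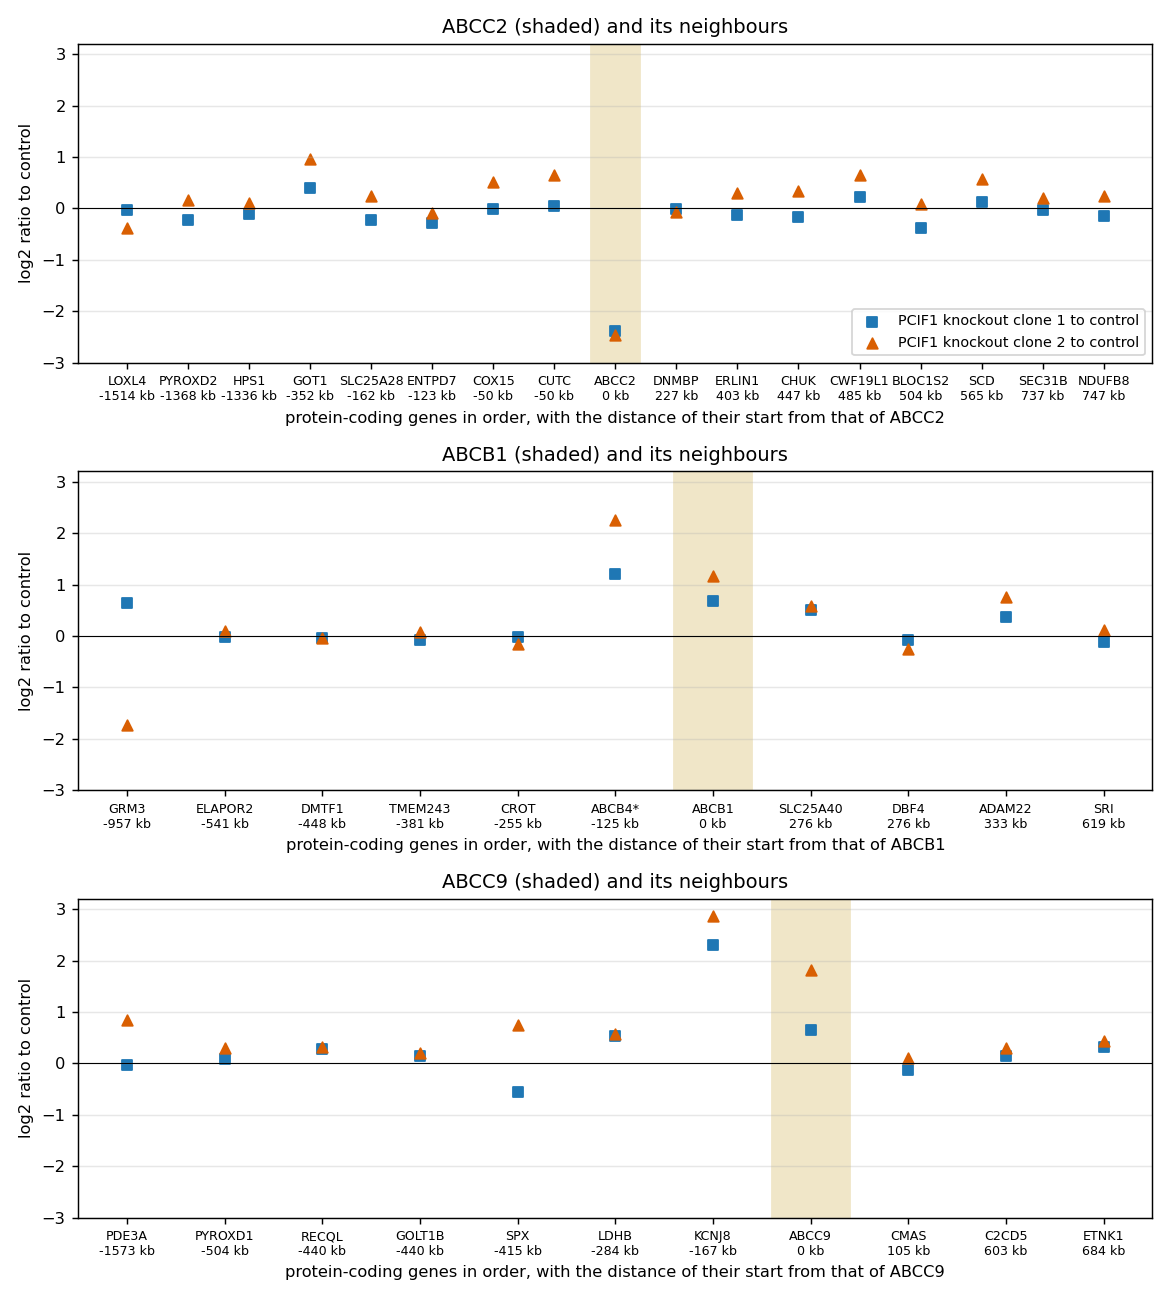
Log2 ratio to control of protein-coding genes in chromosomal order around ABCC2, ABCB1 and ABCC9 (shaded), for clone 1 (squares) and clone 2 (triangles), with each gene's distance in kb; the asterisk marks ABCB4, which was below the floor. Next to ABCC9, KCNJ8 lies at 2.31 and 2.86, and next to ABCC2 no neighbour comes near -2.39 or -2.47.

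Adenosine was the annotated start base of 16 of the 29 members (55.2%, where 46.9% of 12512 protein-coding genes start with it). The 16 had median log2 ratios of -0.02 in clone 1 and -0.16 in clone 2, and the 10 members that start with G had 0.09 and -0.10. Over protein-coding genes the medians were 0.00 and 0.01 for A, and -0.02 and -0.03 for G. The members with an A start include the one far below control, ABCC2, and one above it, ABCB1. The start sites used in these cells were not measured here.

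The GC content of the 220-base windows also differed among the members. It was 30% in ABCA10, 45.0% in ABCC9 and ABCC11, 48.6% in ABCC2 and 57.3% in ABCB1, all below 60%, while ABCC3 lay above 60%. The 6 members at least 1.5-fold off control in either clone had a median of 46.8%, and the 23 within 1.5-fold had 70.9%. Over protein-coding genes the same split gave 66.8% (2116 genes) and 67.3% (10396 genes). A GC content below 60% was found in 83.3% of the 6 members and 17.4% of the 23, against 29.02% and 22.23% of protein-coding genes. The split was made on these ratios over only 6 members, so it is given as a description and shows no trait of changed members. Among the 6, ABCC9 passed the floor through clone 2. With a pseudocount of 5, ABCC11 reached 1.5-fold in neither clone. Over all 29 members the median was 68.2%, close to the 67.3% of protein-coding genes.

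Motif shares over the members varied. The CCAAT box was in 6 of 29 (20.7%) and the GC box in 18 (62.1%). The E-box CACGTG was in 4 members, where 8.83% of protein-coding genes hold it, and the M-box was in 4, ABCC2, ABCC10, ABCF1 and ABCF3. The core of the antioxidant response element, TGACNNNGC, was in 7 members (24.1%), where 11.6% of protein-coding genes hold it; ABCC4 is among them and ABCC2 is not. TATAAA was in 3 (4.09% of protein-coding genes) and TGACGTCA in 1, ABCE1 (3.27%).

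Few genes of the pathways around the transporters were 2-fold off, as was so over all protein-coding genes (2.04% higher and 1.27% lower in clone 1, 2.78% and 1.46% in clone 2), so the zeros below set no list apart. Of 19 genes of the NRF2 pathway and of glutathione conjugation, whose products ABCC proteins export, 0 were 2-fold off in either clone (medians -0.02 and 0.03); SRXN1, an NRF2 target that reduces peroxiredoxins, had 125.5 normalized counts in control against 65.4 and 87.7 in clones 1 and 2, and GSR, which reduces glutathione, had 65.9 against 85.2 and 90.7. Of 10 xenobiotic and bile acid sensors and their cofactors, 6 were compared and 0 were 2-fold off (medians 0.07 and 0.04). The ligand-activated factor AHR had 513.4, 580.7 and 622.6, and the fatty acid receptor PPARA had 60.8, 41.8 and 42.8. Of 16 solute carriers that take up drugs and organic ions, 11 were compared and 1 was 2-fold higher in clone 1, SLCO5A1 of the organic anion transporter family (15.6, 38.8 and 25.2). The organic cation and ergothioneine transporter SLC22A4 had 130.1, 80.7 and 78.0, below control in both clones.

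Among 18 partners of sterol efflux, 17 were compared and 0 were 2-fold off (medians -0.02 and -0.10). NPC2, which carries cholesterol in lysosomes, had 160.4, 227.5 and 241.4 normalized counts, and the sterol regulator SREBF2 had 196.8, 265.7 and 243.6. These 2 were the farthest from control by the mean of the 2 clones, while 10 of the 17 were below it in clone 1 and 9 in clone 2. In single clones other genes lay farther than SREBF2 (log2 ratios 0.43 and 0.31), such as NCOA1 in clone 1 (0.46) and RXRA in clone 2 (-0.49). Of 19 peroxisomal genes, 0 were 2-fold off (0.06 and 0.14), with the thiolase ACAA1 at 179.4, 236.4 and 321.3 and catalase (CAT) at 123.4, 157.4 and 165.9. Of 23 heme and iron-sulfur genes, 0 were 2-fold off (-0.07 and 0.06), with the mitochondrial glycine carrier SLC25A38 at 283.7, 344.9 and 492.7 and the iron-sulfur assembly factor NUBP2 at 209.0, 153.1 and 149.8. Of 16 ribosome recycling genes, 15 were compared and 0 were 2-fold off (-0.03 and -0.07); the ribosome collision sensor ZNF598 had 219.4, 179.5 and 166.0, and the start-codon scanning factor EIF1 had 3374, 2814 and 2904. Of 6 ABC proteins under other symbols and partners, 4 were compared, with KCNJ8, below 10 counts in control, the one at least 2-fold higher in both clones. TAP1, of the antigenic peptide transporter, had 49.5, 60.9 and 51.1. Named after their values were seen, its partner TAP2 had 176.2, 155.1 and 163.3, and the chloride channel CFTR was near 0 (0.341, 1.79 and 0.341).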

How the data were processed

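The deposited table holds 1 signal value per gene and group, which the authors made as a mean normalized count per kb, and a length in bases (unit: other), read by position because the header has 6 names and each row 5 cells. Per the submitters' processing notes, cutadapt 1.14, Bowtie 1.2.2, featureCounts and DESeq2 were used with hg38, GRCh38.p12 and dm3. The series' design text gives an average of 50000000 mappable reads per sample; the sources used here do not give the depth of single libraries, the strand setting, the counted feature or whether the fly spike-in set the scaling. Lengths lay within 5% of GENCODE 44 merged exons for 83.1% of ids (31 of 45 members). Value times length gave normalized counts (Python 3.11.15, numpy 2.4.6, pandas 2.3.3). Of 58336 ids, 57754 matched GENCODE 44. Genes with a mean of 10 or more were compared, with a pseudocount of 1, and called at 2-fold. By rule, values are given for members at 1.5-fold or more, the 5 highest per kb, those each role needs, and from each pathway list the 2 genes with the largest mean ratio. Ratio code was tested on simulated data. Members and lists were chosen with earlier results of these data known. A planned comparison of protein sequences was not made, and values of 2 compared members and 1 promoter are not reported here.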

Additional observations from a re-analysis of the deposited data

How the results depend on the processing

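Between them, pseudocounts of 0.5 and 5, rescaling by the median of ratios, quantile normalization, no floor, a floor of 50 and the values per kb reversed none of ABCC2, ABCC3, ABCB1, ABCC9, ABCC11 and ABCA10 where they were compared (ABCC9 and ABCC11 were not at a floor of 50, nor these and ABCA10 on the values per kb), and ABCC2 was at least 2-fold lower in both clones under each. With no floor, all 45 members entered: clone 1 then had 1 higher (ABCB4) and 4 lower (ABCC2, ABCA12, ABCG1 and ABCA8), and clone 2 had 4 higher (ABCB1, ABCA4, ABCB4 and ABCC9) and 3 lower (ABCC2, ABCA12 and ABCB5). With a floor of 50 counts (21 members) or on the values per kb (17 members), clone 2 had 1 higher, ABCB1, since ABCC9 was not compared. A pseudocount of 5 brought ABCC9 in clone 2 over clone 1 to 0.90, under 2-fold, and ABCC9 and ABCC11 in clone 1 to 0.42 and 0.52, under 1.5-fold. Leaving out replicates was not run, since the table gives 1 mean per group. No paired analysis was possible because the columns carry no replicate numbers. The 16 members below the floor were not compared, and counts near it, such as those of ABCC9, are small.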

Other observations

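Several ABC pseudogenes, which the rule left out, were transcribed. ABCA15P had 100.4 normalized counts in control against 112.1 and 139.6 in clones 1 and 2. ABCA11P had 43.0, 47.0 and 44.7. ABCA17P, which overlaps ABCA3 on the opposite strand, had 10.5, 12.9 and 9.20, and reads of the pair cannot be told apart if strand was not used in counting.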
